A study of Rattus norvegicus with 97 samples.

Results

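The circadian clock genes examined here were Clock, Per1, Per2, Per3, Cry1, Cry2, Nr1d1, Dbp and Rorb, 9 genes chosen by symbol in the platform annotation. They were covered by 16 of the 31042 probe sets tested, where a probe set is a group of short array oligos read as 1 signal. The tissue was the shell of the nucleus accumbens, a striatal region of the reward circuit, and its RNA had been hybridised to 97 Affymetrix rat arrays, 1 for each animal. The rats came from 5 pairs of lines, each pair bred in opposite directions for alcohol intake, in which P, HAD1, HAD2, AA and sP are the preferring lines and NP, LAD1, LAD2, ANA and sNP their non-preferring counterparts. LAD1, sP and sNP were represented by 9 rats each and every other line by 10. No allele, drug or treatment is named for any line, and the labels give no age, sex, alcohol exposure or time of day at which tissue was taken. The comparisons address whether clock gene expression in this region differs between lines bred for opposite alcohol intake, and which clock genes vary together between rats of the same line.

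The circadian clock of a cell is a transcriptional feedback loop. CLOCK, with its partner BMAL1, binds E-box elements and activates the Per and Cry genes, whose products return to the nucleus and repress CLOCK and BMAL1. A further loop runs through the nuclear receptors, of which REV-ERBα, the product of Nr1d1, represses Bmal1 while the ROR proteins activate it, and DBP carries the rhythm to output genes through D-box elements. In the striatum clock genes cycle over the day and respond to dopamine and to drugs of abuse, and Per1 and Per2 are also induced by glucocorticoids and by neuronal activity.

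The promoters shown first are those of the genes in the 5 pairs that varied together after the covariates described further on, and of Rorb, which differed most between lines, because E-box and D-box elements are the sites through which the loop is known to act. Of the 9 genes, 8 had a promoter entry in the RefSeq table of rat build GRCr8, all but Cry1, and Clock had 2 annotated starts. Each sequence is the 250 bases before the annotated start, 5′ to 3′ on the gene's own strand, and capitals mark matches to the motifs searched on both strands.
Clock (chr14:32262500-32262749, plus strand): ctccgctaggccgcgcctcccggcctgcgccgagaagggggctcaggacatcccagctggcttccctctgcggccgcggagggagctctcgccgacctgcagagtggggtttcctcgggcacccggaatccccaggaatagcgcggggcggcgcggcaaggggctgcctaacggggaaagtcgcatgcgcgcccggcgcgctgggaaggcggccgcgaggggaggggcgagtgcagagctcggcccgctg
Clock (chr14:32300295-32300544, plus strand): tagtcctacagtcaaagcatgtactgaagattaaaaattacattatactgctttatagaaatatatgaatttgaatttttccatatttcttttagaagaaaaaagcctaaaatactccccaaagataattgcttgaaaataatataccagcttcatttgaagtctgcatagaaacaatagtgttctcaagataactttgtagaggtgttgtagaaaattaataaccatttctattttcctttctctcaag
Per1 (chr10:54304126-54304375, plus strand): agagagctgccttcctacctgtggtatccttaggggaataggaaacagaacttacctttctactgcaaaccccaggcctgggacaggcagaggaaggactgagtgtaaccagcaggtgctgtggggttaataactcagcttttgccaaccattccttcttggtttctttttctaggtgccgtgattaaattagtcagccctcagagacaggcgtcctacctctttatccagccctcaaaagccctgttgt
Per2 (chr9:99496994-99497243, minus strand): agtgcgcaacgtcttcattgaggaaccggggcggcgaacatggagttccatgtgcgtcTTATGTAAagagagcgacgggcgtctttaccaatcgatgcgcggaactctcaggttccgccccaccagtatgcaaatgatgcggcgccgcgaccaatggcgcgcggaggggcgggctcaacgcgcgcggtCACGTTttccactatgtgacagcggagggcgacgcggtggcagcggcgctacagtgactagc
Cry2 (chr3:98860438-98860687, minus strand): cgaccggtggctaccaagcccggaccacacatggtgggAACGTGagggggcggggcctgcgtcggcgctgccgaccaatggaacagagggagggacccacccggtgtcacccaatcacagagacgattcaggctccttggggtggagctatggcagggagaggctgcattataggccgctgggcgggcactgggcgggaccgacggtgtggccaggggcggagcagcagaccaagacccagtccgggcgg
Per3 (chr5:166777801-166778050, minus strand): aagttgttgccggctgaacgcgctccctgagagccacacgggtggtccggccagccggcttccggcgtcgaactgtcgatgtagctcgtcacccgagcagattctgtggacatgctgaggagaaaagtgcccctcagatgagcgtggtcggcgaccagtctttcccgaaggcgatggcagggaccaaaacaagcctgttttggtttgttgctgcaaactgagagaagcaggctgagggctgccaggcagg
Dbp (chr1:105312006-105312255, plus strand): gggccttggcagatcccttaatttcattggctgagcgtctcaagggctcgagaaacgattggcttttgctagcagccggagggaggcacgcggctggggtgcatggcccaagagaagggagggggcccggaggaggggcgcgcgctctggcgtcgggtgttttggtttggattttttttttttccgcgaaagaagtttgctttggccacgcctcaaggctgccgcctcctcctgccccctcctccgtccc
Rorb (chr1:225970974-225971223, minus strand): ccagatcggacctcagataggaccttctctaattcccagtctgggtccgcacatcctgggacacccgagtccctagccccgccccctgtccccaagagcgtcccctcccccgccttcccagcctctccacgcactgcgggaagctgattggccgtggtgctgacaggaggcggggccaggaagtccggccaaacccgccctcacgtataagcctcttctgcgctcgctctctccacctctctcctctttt
The motifs were the E-box CACGTG, the E-box variant CACGTT, the D-box TTATGNAA, the cyclic AMP response element TGACGTCA and the core AGGTCA of the ROR and REV-ERB element. Per2 held the CACGTT variant 62 to 57 bases before its start and the D-box match TTATGTAA 192 to 185 bases before it. Cry2 held the E-box variant on the other strand, read as AACGTG, 212 to 207 bases before its start. Nr1d1 had 2 annotated starts, 1 with CACGTG 191 to 186 bases before it and 1 with AACGTG 174 to 169 bases before it. The windows of Per1, Per3, Dbp and Rorb, and both windows of Clock, held none of these letters, and no matches overlapped. Over all 33469 promoter windows of this length, CACGTG was found in 5.59%, CACGTT in 4.07%, TTATGNAA in 3.28%, TGACGTCA in 1.59% and AGGTCA in 14.1%. A match describes letters only, and a window without one says nothing about binding elsewhere in the gene.

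The arrays themselves set limits that touch the clock genes. The array medians lay between 7.82 and 8.02 on the log2 scale. The signal of the Affymetrix Gapdh 3′ probe set minus that of the 5′ probe set, which grows with RNA degradation or short labelled fragments, was on average 4.71 in HAD1 and 4.89 in LAD1, and 2.91 in HAD2 and 2.83 in LAD2, but between 0.09 and 0.47 in the other 6 lines. Medium spiny neurons, the main cells of the accumbens, were represented by 13 measured markers, and the spiny neuron index of an array is the mean of these markers minus the mean of 5 markers of pallidum, septum and basal forebrain. The mean of the spiny neuron markers lay between 9.63 and 13.3 on all arrays, but the index ranged from 0.74 to 6.18 among the P animals and averaged 3.39 ± 1.2 (SD, n = 9) in sP against 4.93 ± 0.69 (SD, n = 9) in sNP (permutation test, two-sided, p = 0.00494, adjusted p = 0.0494 over 50 tests). In these bulk samples, fewer cells of a type and less RNA per cell cannot be told apart. On the probe sets that best part the lines of their pair, 8 arrays did not sit with their own line: HAD1 animal 28, LAD1 37, P 9, NP 9, AA 19, ANA 20, sP 4 and sNP 4. Among them AA 19 correlated best with the sP mean (r = 0.995, against 0.979 with AA) and ANA 20 with the sNP mean (r = 0.996, against 0.986 with ANA). Leaving these 8 arrays out changed no call among the 16 clock probe sets in any pair, on average or in the test of unequal differences.

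On their brightest probe sets, Clock, Per2, Cry2 and Dbp differed more between pairs of lines than between the lines of a pair. Clock itself, the activator of the loop, averaged 11.47 to 11.58 in the 4 HAD and LAD lines and 10.49 to 10.62 in the other 6 lines on its brightest probe set (1389456_at), with no animal of 1 set of lines reaching the other. The gap of 0.85 between HAD1 and AA was the largest in its order of line means, and the other 8 gaps were smaller than the SD of the lines beside them. Per2, a repressor of the loop, was also highest in HAD2, HAD1, LAD2 and LAD1, with means from 11.15 to 11.38 against 10.26 to 10.72 elsewhere on 1368303_at. So were Cry2 on 1372548_at (11.42 to 11.75 against 10.75 to 11.01) and Cry1 on 1392640_at (9.77 to 10.10 against 9.46 to 9.70). Dbp ran the other way, lowest in LAD1 (10.42 ± 0.15, SD, n = 9) and HAD1 (10.43 ± 0.16, SD, n = 10) and highest in AA (11.73 ± 0.25, SD, n = 10). These orders did not hold on every probe set. Clock ran the same way on 1390199_at (10.85 to 11.12 in the HAD and LAD lines, 9.95 to 10.17 elsewhere) and on 1369168_a_at (5.78 to 5.91 against 5.21 to 5.54), but on 1380098_at the means of HAD2 and LAD2 (6.83 each) lay below those of P (6.90), NP (6.92), AA (6.96) and ANA (7.02). On the dimmer probe set of Per2, 1378560_at, LAD2 had the lowest mean of the 10 lines (8.38) and AA the highest (8.52), and on that of Cry2, 1369446_at, AA was highest (7.70) with HAD1 at 7.26 and LAD1 at 7.16. For Per1, Nr1d1 and the brighter probe set of Per3, 1378745_at, all 9 gaps between neighbouring line means were smaller than the spread within lines. On the dimmer probe set of Per3, 1388239_at, 7 of 9 gaps were. There HAD2 (6.08), LAD2 (5.99), HAD1 (5.90) and LAD1 (5.88) had the highest means. Rorb differed in order between its probe sets. On 1395023_at HAD1 (7.93), LAD1 (7.79) and LAD2 (7.62) had the lowest means, but HAD2 (8.56) lay among the other lines. On 1371257_at HAD2 (7.44), LAD1 (7.17), HAD1 (7.15) and LAD2 (7.09) had the highest means. The HAD and LAD lines are the ones with the high Gapdh 3′ minus 5′ signal, so stock and handling cannot be told apart for these levels.

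**Figure D1:**
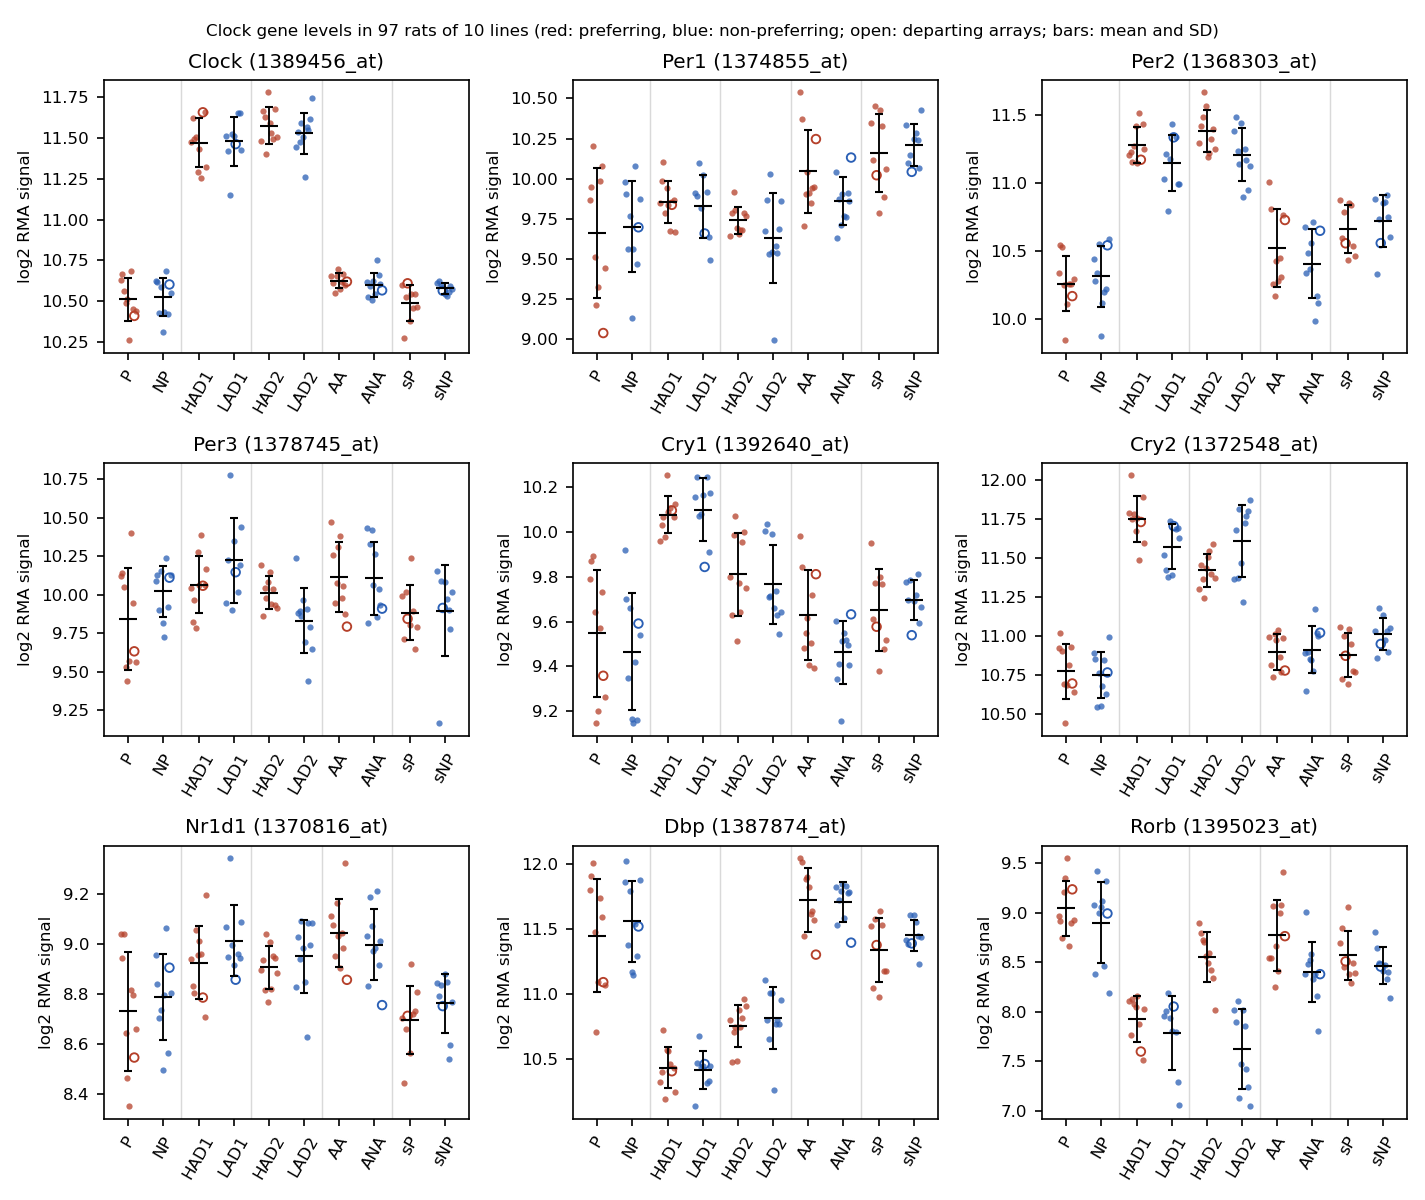
Level of the brightest probe set of each clock gene in every animal (y axis, log2 RMA signal) by line (x axis), with preferring lines in red, non-preferring lines in blue, departing arrays as open circles, and black bars for mean and SD. On these probe sets Clock, Per2, Cry1 and Cry2 have higher means and Dbp lower means in the HAD and LAD lines, while the lines of a pair overlap in every panel.

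Between the lines of a pair few clock probe sets were called, and Rorb in HAD2 and LAD2 had the largest difference. With limma on all probe sets, P/NP had 0 of 16 clock probe sets called at an adjusted p under 0.05, against 1.05% of all probe sets. HAD1/LAD1 had 0 of 16 against 1.2%, and AA/ANA had 0 of 16 against 2.35%. HAD2/LAD2 had 2 of 16, both of Rorb, against 4.6%. In sP/sNP 1 of 16 was called, a probe set of Clock, against 12.9%. At an unadjusted p under 0.05 the counts were 0 of 16 in P/NP, 1 in HAD1/LAD1, 3 in AA/ANA, 6 in HAD2/LAD2 and 2 in sP/sNP. The share of all probe sets at this unadjusted threshold is not given here. These counts therefore do not show whether clock probe sets differed more often than others. The median size of the clock differences was 0.05 in P/NP, 0.03 in HAD1/LAD1, 0.09 in HAD2/LAD2, 0.04 in AA/ANA and 0.06 in sP/sNP, beside 0.05, 0.05, 0.06, 0.05 and 0.08 for all probe sets.

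Clock was read by 4 probe sets. On 1389456_at the difference, preferring minus non-preferring, ran from -0.09 in sP/sNP to 0.05 in HAD2/LAD2. On 1390199_at the sP animals lay at 9.72 to 10.15 (median 9.95) and the sNP animals at 10.04 to 10.21 (median 10.12). The lines overlapped, with a tighter sNP group. The sP mean was 0.18 lower (SE 0.05, 95% interval -0.28 to -0.07, 1.13-fold, limma adjusted p = 0.0333). The other probe sets of Clock were uncalled in that pair (-0.09, adjusted p = 0.165; -0.13, adjusted p = 0.362; -0.01, adjusted p = 0.95). The call on 1390199_at was lost with the spiny neuron index in the fit (-0.07, adjusted p = 1.0), with Gapdh 3′ minus 5′ in the fit (-0.16, adjusted p = 0.0866), and when any of sNP 1, sP 2, sNP 3, sP 5, sP 8, sP 9 or sNP 9 was left out (adjusted p from 0.0616 to 0.0711). In HAD2/LAD2 the same probe set was 0.17 higher in HAD2 (adjusted p = 0.0848) and was called when LAD2 animal 11 was left out.

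The Per genes, which encode repressors of the loop, had no called difference with all animals in the fit. For Per1 (1374855_at) the P animals spread from 9.04 to 10.20 (median 9.69) and the NP animals from 9.13 to 10.08 (median 9.73), so that the lines covered nearly the same range. Its largest difference was 0.18 higher in AA (95% interval -0.01 to 0.38, adjusted p = 0.536). For Per2 (1368303_at) the largest was in HAD2/LAD2, 0.17 higher in HAD2 (95% interval 0.01 to 0.33, adjusted p = 0.287). Per3, the member of the family whose loss affects the loop least, lay 0.18 lower in P (95% interval -0.42 to 0.05, adjusted p = 0.899) and 0.18 higher in HAD2 (0.03 to 0.34, adjusted p = 0.225) on 1378745_at. These intervals allow differences in either direction for Per1 and for Per3 in P/NP. Without LAD2 animal 11 the Per3 probe set was called in HAD2/LAD2 too, which made 4 of 16 clock probe sets.

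The cryptochromes, which bind CLOCK and BMAL1 and hold them inactive, were likewise uncalled in each pair. Cry1 (1392640_at) was 0.17 higher in AA than in ANA (95% interval 0.01 to 0.33, adjusted p = 0.449). Cry2 (1372548_at) was 0.17 higher in HAD1 (0.03 to 0.32, adjusted p = 0.3), 0.19 lower in HAD2 (-0.35 to -0.02, adjusted p = 0.241) and 0.14 lower in sP (-0.26 to -0.01, adjusted p = 0.126). The 5 differences of Cry2 were unequal by the limma F test (adjusted p = 0.0338), but this call was lost when arrays were centred on their medians. The F test asks whether the differences are equal, not whether their signs differ. By the same test 4 of 16 clock probe sets had unequal differences, Cry2 1372548_at, Clock 1390199_at (adjusted p = 0.0115) and both of Rorb (0.00323 and 0.00219), against 11.7% of all probe sets.

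Nr1d1, which encodes the repressor of Bmal1, differed by no more than 0.09 in size in any pair, the largest being HAD1/LAD1 (95% interval -0.23 to 0.05, adjusted p = 0.792). Dbp, the PAR bZIP output factor, lay 0.11 lower in P (95% interval -0.45 to 0.22, adjusted p = 1.0) and 0.12 lower in sP (-0.30 to 0.07, adjusted p = 0.399). P animals ran from 10.71 to 12.01 for Dbp and NP animals from 11.15 to 12.02, and the spread between rats of a line was thus larger than the gap between lines.

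Rorb, a nuclear receptor of the ROR family found in sensory cortex, retina and the central clock, gave the main line difference. On 1395023_at the HAD2 animals lay at 8.02 to 8.90 (median 8.58) and the LAD2 animals at 7.04 to 8.11 (median 7.66). A single HAD2 animal fell within the LAD2 range, and the other 9 lay above every LAD2 animal. The HAD2 mean was 0.94 higher (SE 0.14, 95% interval 0.64 to 1.2, 1.91-fold, limma adjusted p = 0.000119). On the other probe set, 1371257_at, HAD2 ran from 7.22 to 7.73 (median 7.41) and LAD2 from 6.94 to 7.22 (median 7.09), so that the lines met only at their edges. That difference was 0.36 (SE 0.07, 95% interval 0.22 to 0.50, 1.3-fold, adjusted p = 0.00121). With the spiny neuron index in the fit the values were 0.99 and 0.38, and with Gapdh 3′ minus 5′ 0.89 and 0.35, all still called. Markers of other cell types moved in this pair too, in which 4.6% of all probe sets were called. Of 11 oligodendrocyte markers 5 were called lower in HAD2 and 0 lay above 0. The list mean was 0.31 lower (difference -0.31, permutation p = 0.00139, adjusted p = 0.0283 over 50 tests). Of 10 endothelial markers 4 were called lower and 1 higher, and 2 lay above 0 (mean difference -0.10, permutation p = 0.02, adjusted p = 0.111). Of 12 mural and meningeal markers 3 were called higher and 7 lay above 0 (mean difference 0.15, permutation p = 0.0224, adjusted p = 0.112). Of 10 microglial markers 2 were called lower and 1 higher, and 4 lay above 0. The 9 cortical excitatory neuron markers had a mean difference of -0.03 (permutation p = 0.68) but a median of 0.02, with 5 of 9 above 0. For all these lists their part in the Rorb difference was not tested.

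**Figure D2:**
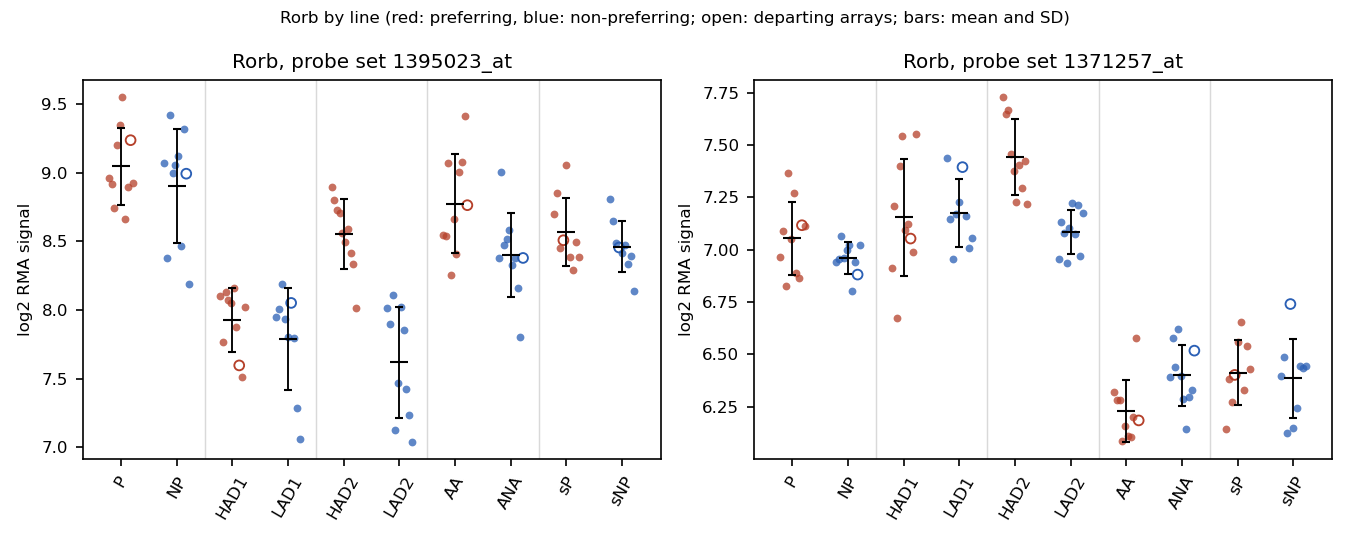
Rorb signal of every animal on its 2 probe sets (y axis, log2 RMA signal) by line (x axis), with preferring lines in red, non-preferring lines in blue, departing arrays as open circles, and bars for mean and SD. HAD2 stands above LAD2 on both, by 0.94 and 0.36, while the other pairs overlap broadly.

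In the other pairs Rorb differences were smaller and the probe sets did not always run the same way. On 1395023_at AA animals lay at 8.25 to 9.42 (median 8.71) and ANA animals at 7.80 to 9.0 (median 8.38). The AA mean was 0.37 higher (95% interval 0.08 to 0.67, adjusted p = 0.257), whereas on 1371257_at it was 0.17 lower (-0.31 to -0.03, adjusted p = 0.289). Both were uncalled, and the probe sets gave opposite signs. The AA rat with the highest Rorb on both probe sets, AA 17 (9.42 and 6.58), also had a mean of 9.06 over the cortical excitatory neuron markers, against 6.86 to 7.49 in the other AA rats. Without it the Rorb differences were 0.30 (adjusted p = 0.42) and -0.21 (adjusted p = 0.0727). The cortical markers were higher in AA for 8 of 9, with a mean difference of 0.22 (permutation p = 0.353, adjusted p = 0.706). P/NP, HAD1/LAD1 and sP/sNP differed by 0.15, 0.14 and 0.11 on 1395023_at, each with an interval that includes 0.

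Averaged over the 5 pairs, Rorb 1395023_at was the single clock probe set called, 1 of 16 against 3.37% of all probe sets. Its mean difference was 0.34 (SE 0.06, limma adjusted p = 0.000107), and the preferring line had the higher mean in 5 of 5 pairs. HAD2/LAD2 carried much of it: over the other 4 pairs the average was 0.19 (adjusted p = 0.115). With the line pair as the unit, which takes the 5 differences as the replicates, the same value had an adjusted p of 0.948. That fit called 0 of 31042 probe sets, with 1214 of them and 1 of 16 clock probe sets at an unadjusted p under 0.05. On the other Rorb probe set, 1371257_at, the average was 0.06 (limma adjusted p = 0.459), with the preferring line higher in 3 of 5 pairs.

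**Figure D3:**
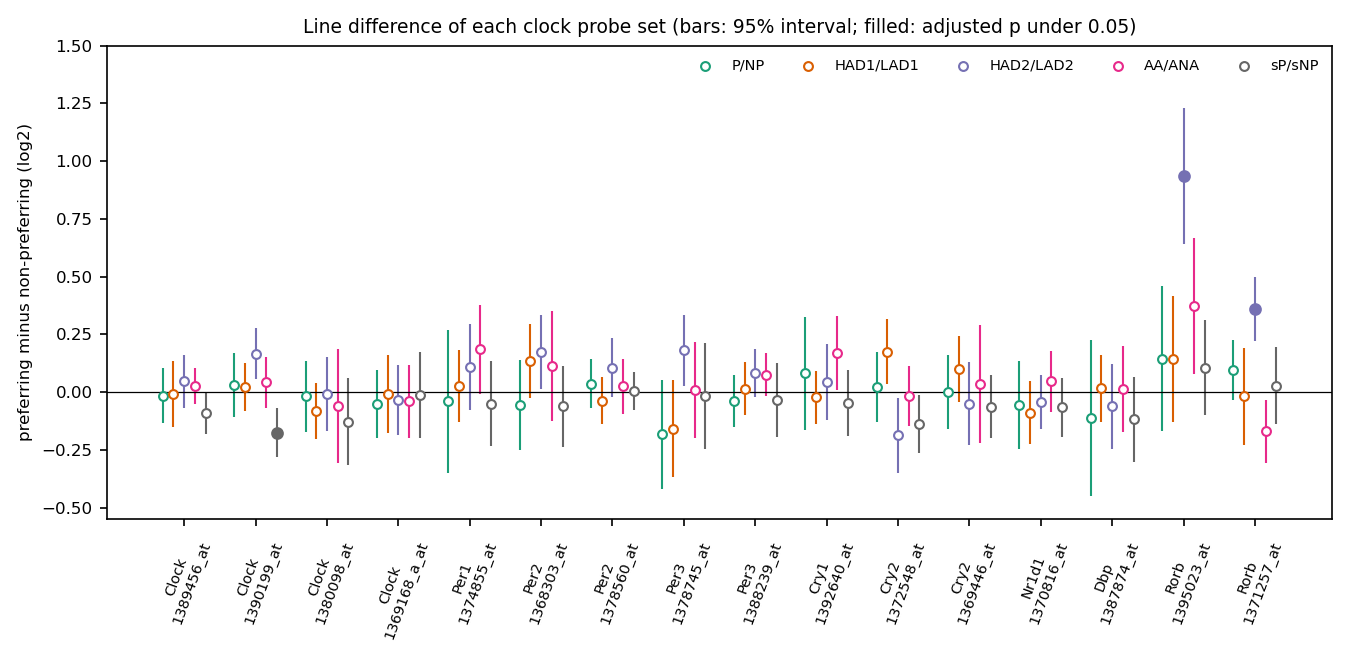
Difference between the lines of each pair (y axis, preferring minus non-preferring, log2) for the 16 clock probe sets (x axis), with 1 colour per pair, bars for 95% intervals and filled points for an adjusted p under 0.05. The 3 filled points are Rorb on both probe sets in HAD2/LAD2 and Clock 1390199_at in sP/sNP.

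Other genes of the clock were measured for 16 of 22 listed symbols, among them Bmal1, Npas2, Nr1d2, Rora, Tef, Hlf, Bhlhe40 and Bhlhe41. With limma none of the 16 was called in P/NP, HAD1/LAD1, HAD2/LAD2 or AA/ANA, or on average, and at an unadjusted p under 0.05 there were 1, 3, 2 and 3 in these pairs. In sP/sNP 5 of 16 were called, and 12.9% of all probe sets were, with 8 of 16 at an unadjusted p under 0.05. The unadjusted counts have no share of all probe sets beside them and cannot be set against the array. Bhlhe40, a repressor induced by many stimuli, rose in sP by 0.29 (adjusted p = 0.0136). Bmal1, the partner of CLOCK, was lower by 0.41 in sP (difference -0.41, adjusted p = 0.0211), and Npas2, which can replace CLOCK in forebrain, differed by -0.70 (adjusted p = 0.0372). Tef, a relative of Dbp, differed by -0.33 (adjusted p = 0.0487) and Usp2, a rhythmic deubiquitinase, by -0.61 (adjusted p = 0.0496). In the same comparison 12 of 13 spiny neuron markers were called lower and 3 of 5 pallidal, septal and basal forebrain markers were called higher. By sign alone 0 of the 13 and 5 of the 5 lay above 0. Of 9 astrocyte markers 4 were called higher and 7 lay above 0 (mean difference 0.22, permutation adjusted p = 0.0283). Of 10 endothelial markers 3 were called lower and 2 lay above 0 (mean difference -0.17, permutation adjusted p = 0.006). Of 12 mural and meningeal markers 3 were called higher and 12 lay above 0 (mean difference 0.29, permutation p = 0.0852, adjusted p = 0.304). Of 11 oligodendrocyte markers 1 was called higher and 11 lay above 0. The part of these cell types in the clock differences was not tested. With the spiny neuron index in the fit 298 of 31042 probe sets were called in place of 4006, and with Gapdh 3′ minus 5′ 863 were. With single arrays left out the count ran from 1031 (without sNP 3) to 5821 (without sP 3). These counts cover all probe sets and do not say which of the 5 clock genes kept their calls. Of 11 genes induced by glucocorticoids 4 were called higher in sP and 6 lay above 0. The called ones included Tsc22d3 (0.36, adjusted p = 0.0104) and Pdk4 (0.61, adjusted p = 0.0121). Of 13 activity-dependent genes 4 were called lower and 4 lay above 0. The called ones included Arc (-0.72, adjusted p = 0.0204) and Egr1 (-0.69, adjusted p = 0.0436). Per1, which belongs to both kinds of response, differed by -0.05 (adjusted p = 0.753).

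Between rats of the same line, the clock genes varied together, and so did a large part of the array. After the mean of each line was removed, 24 of 36 pairs of clock genes were called, meaning that limma with each gene in turn as covariate gave an adjusted p under 0.05 for the other. Called pairs had Pearson r from 0.32 to 0.68 among the 8 genes other than Rorb, and from -0.55 to -0.36 with Rorb. Per1 and Dbp were each called with 8 of 8 other clock genes, against 42.9% and 49.4% of all probe sets. Per3, Cry1, Cry2 and Nr1d1 were called with 5 of 8 each, against 38.3%, 41.1%, 46.7% and 29.7%. Clock, Per2 and Rorb were called with 4 of 8 each, against 36.8%, 20.5% and 33.6%. With backgrounds of this size, a call with a clock gene was common across the array.

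The relations were not equally present in every pair of lines. Over the 20 called pairs of clock genes without Rorb, the median r was 0.77 among the 20 P and NP rats, with 20 of 20 above 0, and 0.58 among the 18 sP and sNP rats, again with 20 of 20 above 0. It was 0.35 in HAD2/LAD2 and 0.32 in AA/ANA, with 19 and 17 of 20 above 0. Among the 19 HAD1 and LAD1 rats the median was -0.02 and 9 of 20 were above 0, so that the pooled relation did not hold there.

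The shared variation ran with the spiny neuron index. The first principal component of the line-centred levels held 30.3% of their variance and had an absolute r of 0.98 with the spiny neuron index. Dbp followed the index most closely, with r = 0.85 and rho = 0.79 over the 97 animals (permutation within lines, p = 1e-05 for each, the smallest they can give; adjusted p = 3e-05 over 18 relations), and r = 0.82 without the 2 animals farthest from the median index. The P animal with the lowest index, P 5 at 0.74, had the lowest Dbp of its pair, 10.71, and the 5 animals of that pair with the highest index, from 5.94 to 6.18, had Dbp of 11.80 to 12.02. Dbp correlated positively with the index in 9 of 10 lines, and the lowest line gave r = -0.07. Within pairs of lines its r with the index was 0.97 in P/NP, 0.88 in sP/sNP, 0.78 in AA/ANA, 0.67 in HAD2/LAD2 and 0.38 in HAD1/LAD1. The spread of the index within lines fell in the same order, from an SD of 1.58 in P/NP through 0.96, 0.73 and 0.45 to 0.20 in HAD1/LAD1. Per1 (r = 0.71), Cry2 (0.68), Cry1 (0.65), Nr1d1 (0.52), Per3 (0.49), Clock (0.47) and Per2 (0.35) also rose with the index, and Rorb fell with it (r = -0.43), each with an adjusted permutation p of 0.00184 or less. In HAD1/LAD1, however, Per2 (r = -0.43), Per3 (-0.20) and Nr1d1 (-0.25) ran against the index. With Gapdh 3′ minus 5′ the r over all 97 animals lay between -0.32 (Cry2) and 0.27 (Rorb). The adjusted permutation p was under 0.05 for Cry2 (0.00484), Rorb (0.0142), Per3 (r = 0.22, 0.0172) and Clock (r = -0.29, 0.0179). Within single lines r with Gapdh 3′ minus 5′ ran much wider, from -0.71 to 0.55 for Clock and from -0.36 to 0.78 for Per3.

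**Figure D4:**
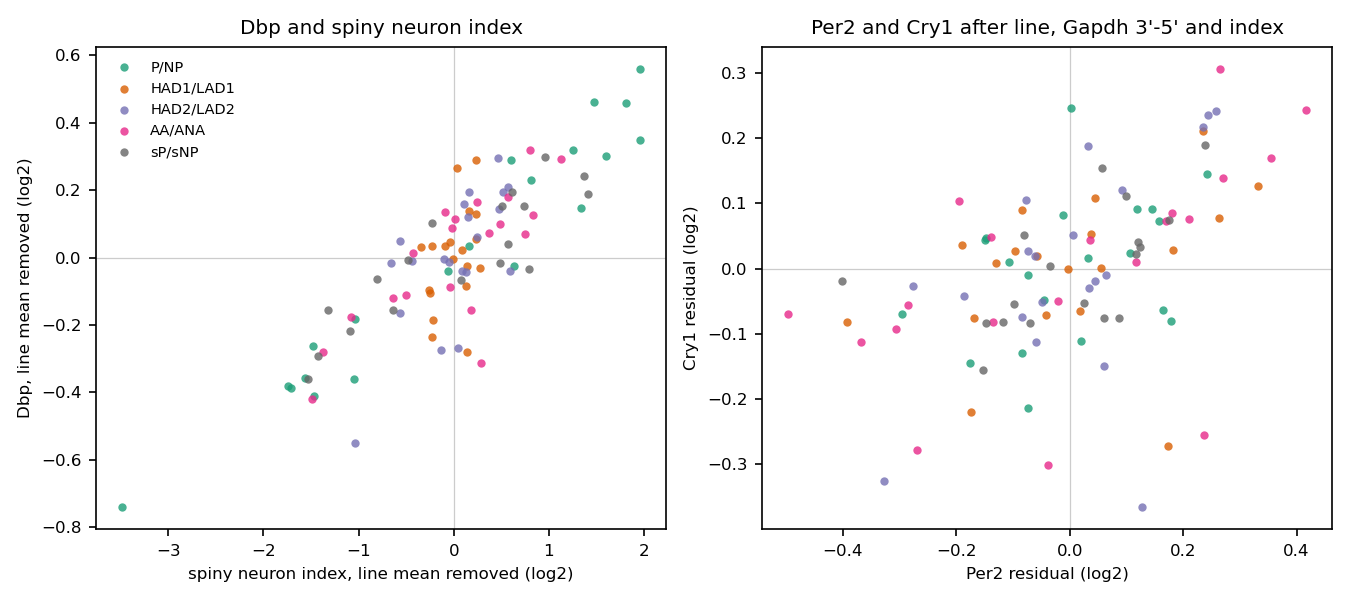
Left, Dbp against the spiny neuron index in 97 rats with line means removed (both axes log2); right, residuals of Per2 and Cry1 (both axes log2) after line, Gapdh 3′ minus 5′ and the index. Points are animals coloured by pair; Dbp rises with the index (r = 0.85), and Per2 with Cry1 keeps a positive relation (r = 0.48).

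With Gapdh 3′ minus 5′ and the index as further covariates, 5 of 36 pairs remained called. They were Per2 with Cry1, Per1 with Per2, Per1 with Cry1, Per3 with Dbp, and Clock with Cry2. The counts for single genes below take that gene as the covariate, in that direction alone. In this setting Per1 was called with 2 of 8 other clock genes against 4.21% of all probe sets, Per2 with 2 against 8.4%, and Cry1 with 2 against 4.2%. Cry2 was called with 2 of 8 against 10.4%. The call beside Clock was with Rorb, negative (r = -0.33) and in this direction alone (limma adjusted p = 0.0244, and 0.0601 with Rorb as covariate), so it is not among the 5 pairs. Clock was called with 1 of 8 against 11.8%, Per3 with 1 against 19.1% and Dbp with 1 against 14.4%. Nr1d1 was called with 0 against 0.00322%, and Rorb with 0 against 4.16%. For Clock 1 of 8 is near the background, and for Per3 and Dbp it is below it.

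Per2 and Cry1, which act as 1 repressor complex, gave r = 0.59 and rho = 0.60 with line means removed (permutation p = 1e-05 for both) and r = 0.48 and rho = 0.52 with the covariates (permutation p = 4e-05 and 1e-05, limma adjusted p = 0.00163). Without the 2 animals farthest from the Per2 median the second r was 0.47. Within the pairs of lines it was 0.36 in P/NP, 0.38 in HAD1/LAD1, 0.53 in HAD2/LAD2, 0.56 in AA/ANA and 0.57 in sP/sNP, and r with line means removed was positive in 10 of 10 lines. The relation was thus positive in every pair. Among 13981 genes, Per2 ranked 22nd by likeness to Cry1 once the covariates were removed, and Cry1 ranked 43rd by likeness to Per2.

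Per1 varied with both of them, but less evenly. Per1 with Per2 gave r = 0.41 and rho = 0.38 with the covariates (permutation p = 0.00024 and 0.00016, limma adjusted p = 0.00844, r = 0.36 without the 2 farthest animals). By pair it was 0.02 in P/NP, 0.05 in HAD1/LAD1, 0.43 in HAD2/LAD2, 0.76 in AA/ANA and 0.49 in sP/sNP, so that it did not hold in the first 2. Per1 with Cry1 gave r = 0.37 and rho = 0.33 (permutation p = 0.00092 and 0.0016, limma adjusted p = 0.0223, r = 0.33 without the 2 farthest animals). It was -0.06 in P/NP, 0.31 in HAD1/LAD1, 0.12 in HAD2/LAD2, 0.81 in AA/ANA and 0.61 in sP/sNP. Per2 ranked 63rd by likeness to Per1. The AA and ANA rats carried the strongest values of both relations, and they include the departing arrays AA 19 and ANA 20. AA 19 had residuals of 0.46 for Per1, 0.26 for Per2 and 0.31 for Cry1. Without the departing arrays r with the covariates was 0.40 for Per1 with Per2 and 0.29 for Per1 with Cry1.

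Per3 and Dbp, both genes that CLOCK and BMAL1 are known to activate, gave r = 0.61 and rho = 0.63 with line means removed (permutation p = 1e-05 for both). With the covariates r and rho were both 0.49 (permutation p = 1e-05 and 2e-05, limma adjusted p = 0.00012), and r stayed at 0.49 without the 2 farthest animals. By pair r was 0.35 in P/NP, 0.56 in HAD1/LAD1, 0.45 in HAD2/LAD2, 0.66 in AA/ANA and 0.38 in sP/sNP, and with line means removed it was positive in 10 of 10 lines. This relation too was positive in every pair, but Dbp ranked only 186th of 13981 genes by likeness to Per3 with the covariates, and Per3 283rd by likeness to Dbp. Clock with Cry2 gave r = 0.44 and rho = 0.40 with the covariates (permutation p = 3e-05 and 0.00011, limma adjusted p = 0.00169, r = 0.42 without the 2 farthest animals), with 0.11 in P/NP, 0.58 in HAD1/LAD1, 0.65 in HAD2/LAD2, 0.49 in AA/ANA and -0.24 in sP/sNP. Cry2 ranked 323rd by likeness to Clock, and Clock 144th by likeness to Cry2.

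**Figure D5:**
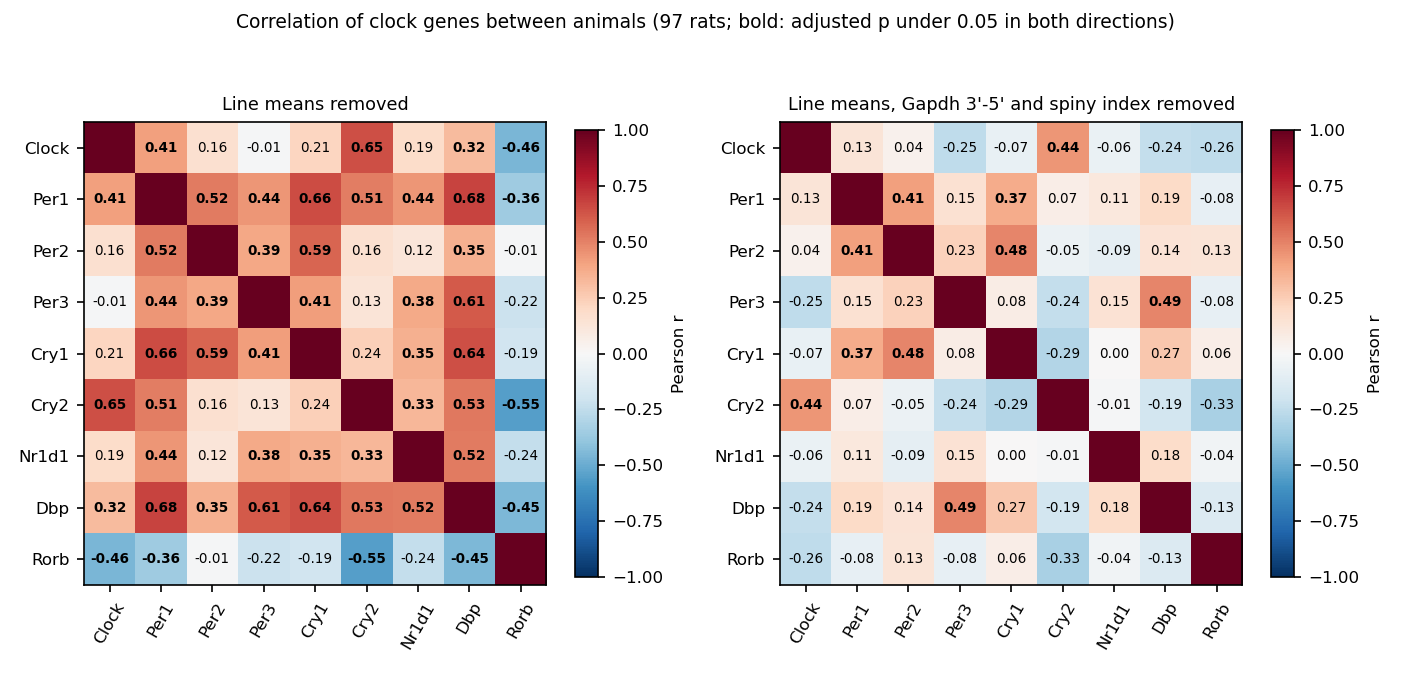
Pearson r between the clock genes over 97 rats (colour scale and printed values), with line means removed on the left and with Gapdh 3′ minus 5′ and the spiny neuron index also removed on the right; bold marks an adjusted p under 0.05 in both directions. The left panel has 24 bold pairs and the right 5, among them Per2 with Cry1 (0.48) and Per3 with Dbp (0.49).

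The 16 other clock genes were called in few of these relations once the covariates were in the fit. With Nr1d1 as covariate 0 of 16 were called (background 0.00322%), with Per1 0 (4.21%), with Cry1 1 (4.2%), and with Per2 2 (8.4%). With Cry2 3 were called (10.4%), with Rorb 2 positive and 1 negative (4.16%), and with Clock 4 positive and 1 negative (11.8%). With Dbp 1 positive and 2 negative were called (14.4%), and with Per3 0 positive and 1 negative (19.1%). The counts of Per1, Per2, Per3, Cry1 and Dbp were near or below their backgrounds.

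Bmal1 had r = 0.68 with Dbp when line means alone were removed and -0.03 (adjusted p = 0.9) with the covariates. Npas2 went from 0.80 to 0.07 with Dbp, and Hlf, a further PAR bZIP factor, from 0.71 to -0.10. The relations of Dbp that were called with the covariates were with Usp2 (r = 0.36, adjusted p = 0.00698), Bhlhe40 (-0.30, adjusted p = 0.0392) and Csnk1e (-0.34, adjusted p = 0.0148), a casein kinase that phosphorylates PER, and Per3 had -0.30 with Bmal1 (adjusted p = 0.0283). Bhlhe41, a transcriptional repressor fed by the clock, had r = 0.57 with Per2 (adjusted p = 2.04e-05) and 0.39 with Cry1 (adjusted p = 0.0164), and Csnk1d, another such kinase, had 0.34 with Per2 (adjusted p = 0.0357). Clock had 0.57 with Nr1d2, which encodes the sister receptor REV-ERBβ (adjusted p = 9.6e-06), 0.50 with Btrc, an F-box protein that marks PER for breakdown (adjusted p = 8.65e-05), 0.39 with Bhlhe40, 0.34 with Csnk1e and -0.33 with Usp2. Cry2 shared 3 of these partners, with 0.56 for Btrc (adjusted p = 1.33e-05), 0.53 for Csnk1e (adjusted p = 6.62e-05) and 0.30 for Bhlhe40 (adjusted p = 0.0487). Rorb had 0.56 with Rora, another ROR receptor (adjusted p = 4.76e-06), 0.56 with Hlf and -0.40 with Tef (adjusted p = 0.00763).

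The genes most like each clock gene between animals were for the most part no clock genes. With line means removed, Dbp was most like Fbf1 (r = 0.89), Ccdc106 (0.89) and Necab2 (0.88), Per1 like Usp19 (0.80), Rrp1b (0.78) and Cpne5 (0.76), and Per2 like Klf5, Pxdn and Ift122 (0.64, 0.64 and 0.63). Cry1 was most like Adissp (0.79), Cfap20 (0.78) and Smpdl3b (0.77), Cry2 like Pik3r2 (0.82), Abl2 (0.80) and Mapk14 (0.80), and Clock like Mapk14 (0.80), Tdg (0.76) and Klhdc1 (0.76). Per3 was most like Klhl3 (0.81), Zbtb20 (0.79) and Ube3al1 (0.77), Nr1d1 like Ubald1 (0.64), Scara3 (0.62) and Syt5 (0.62), and Rorb like Pex5l (0.72), Ccdc127 (0.70) and Arhgap5 (0.68). With the covariates Per1 was closest to Klf2 (0.59), Usp19 (0.58) and Nr4a3 (0.55). In that setting the closest gene was Mapk14 for Clock (0.72), Arhgap17 for Per2 (0.67), Ube3al1 for Per3 (0.73) and Atp6v0e1 for Cry1 (0.58). It was Ap3m2 for Cry2 (0.69), Ubald1 for Nr1d1 (0.46), Men1 for Dbp (0.65) and Arhgap5 for Rorb (0.63). All of these r values run over 97 animals and 13981 genes with 1 symbol, and the likeness was not tested.

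Probe sets of the same gene did not always vary together between animals. The pair of Cry2 probe sets had r = 0.52 and that of Rorb 0.33, but those of Per3 had 0.04 and those of Per2 -0.14. The 4 of Clock gave r from -0.23 to 0.46. The dimmer probe sets lay low on the array, such as Clock 1369168_a_at with a mean signal of 5.55 and Per3 1388239_at with 5.79, and the covariation above was computed on the brightest probe set of each gene.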

How the data were processed

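RNA of the nucleus accumbens shell was measured in 97 rats, 1 array each; line and animal number come from the labels. The deposited values are log2 signals summarised by the authors with RMA, per the submitters' processing notes; the sources used here name neither its version nor whether pairs were summarised together. They were used as deposited, without the 57 control probe sets. The number of arrays limits precision. Nothing in the labels says how animals were housed or related.

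Differences were tested by limma (version 3.58.1, under R 4.3.3; two-sided moderated test, Benjamini-Hochberg over 31042 probe sets, called at an adjusted p under 0.05), within each pair, as an average of the 5 differences, as an F test of their equality, and with the pair as the unit. Covariation used limma with line means and the line-centred level of a clock gene, and 100000 permutations within lines (Python 3.11.15, numpy 2.4.6, scipy 1.17.1, matplotlib 3.10.9). Fits were tested on simulated data. A label score, the position of an array between the medians of its pair's lines over 50 probe sets, had to lie within 0.3 of its label.

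All 9 genes and all their probe sets are named; the main probe set is the brightest. From other lists up to 4 called genes with the smallest adjusted p were named, and for likeness the 3 genes with the highest r, without provisional symbols. Usp2, the fifth called gene of its list, was named after its values were seen. The members and lists were chosen with earlier results of these data known. Alternatives covered scaling, filters, covariates, spread, the replicate block and left-out arrays or pairs.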

Additional observations from a re-analysis of the deposited data

Results flagged for a closer look

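In the groups of 9 or 10 animals, the highest or lowest animal stood apart from the rest of its line on 8 of 160 combinations of probe set and line; chance alone flags about 1 in 20 groups, which comes to 8 here. LAD1 animal 33 was lowest for Clock 1389456_at (11.15, next 11.42) and highest for Nr1d1 (9.34, next 9.09). LAD2 16 was lowest for Per1 (8.99, next 9.53), sNP 2 lowest for Per3 1378745_at (9.17, next 9.78), sP 9 lowest for Cry2 1369446_at (6.79, next 7.06), and AA 17 highest for Rorb 1371257_at (6.58, next 6.32). AA 17 also had a mean of 9.06 over the 9 cortical excitatory neuron markers, against 6.86 to 7.49 in the other AA rats, and the part of this in its Rorb level was not tested. The remaining 2 came from departing arrays, AA 19 with the lowest Clock 1380098_at (6.21, next 6.73) and ANA 20 with the lowest Clock 1369168_a_at (5.20, next 5.47).

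The differences between preferring and non-preferring lines were unequal among the 5 pairs, by the limma F test, for Clock 1390199_at (adjusted p = 0.0115), Cry2 1372548_at (adjusted p = 0.0338), Rorb 1395023_at (adjusted p = 0.00323) and Rorb 1371257_at (adjusted p = 0.00219). Their values by pair are given above, and no cause was tested.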

How the results depend on the processing

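Of 757 single values recomputed under alternatives, 697 kept their direction and their side of the threshold, 41 lost a call, 13 gained one and 6 called values changed sign. The count of called clock probe sets in HAD2/LAD2 was 1 among probe sets above the median signal, where the dimmer Rorb probe set is not tested, and 2 to 4 with each array left out in turn. In sP/sNP it was 0 with the Gapdh covariate and 0 with the spiny neuron index, and 0 to 1 with each array left out. The average had 0 called with the line pair as the unit and 0 without HAD2/LAD2. Called pairs of clock genes numbered 5 with Gapdh and the index and 10 with the first principal component, an alternative chosen after seeing the data, like those without departing arrays, without each array or without each pair. Among pairs called with line means alone removed, r reversed with Gapdh and the index for Clock with Dbp (-0.24), Cry2 with Nr1d1 (-0.011) and Cry2 with Dbp (-0.19). With the first component these were -0.26, -0.053 and -0.16, and none of these reversed values was called. Uncalled pairs reversed too. Of 28 pairs without Rorb, 27 had r above 0 with line means removed and 18 with Gapdh and the index. Cry1 with Cry2, uncalled in both settings, went from 0.24 to -0.29. Beyond the covariates' own construction the cause was not tested. Animal numbers are shared in P/NP and sP/sNP. Same-numbered animals correlated above 0.1 in 6 of 10 and 5 of 9 cases, with a median r of 0.33 and 0.11. The animal with the highest r carried the same number in 4 of 10 and 2 of 9. The labels do not say whether a shared number marks a pair, and these values do not settle it. The main fits took the animals as unpaired. The replicate block gave 0 clock probe sets in P/NP and 1 in sP/sNP, and 197 and 5035 calls over all probe sets against 326 and 4006.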
